A study of Mus musculus with 35 samples.

Results

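The 9 genes described here are 3 families of early response genes: Nr4a1, Nr4a2 and Nr4a3, Egr1, Egr2 and Egr3, and Ier2, Ier3 and Ier5. They were taken by symbol from a table of 55011 gene symbols, and all 9 were among the 15910 genes with enough counts to be tested. RNA was sequenced from regulatory T cells (Tregs) of spleen and of visceral adipose tissue (VAT). Donors were wild-type C57BL/6 male mice, retired from breeding, older than 35 weeks and under a daily cycle of 12 h light and 12 h dark. CD4+ CD25+ cells were sorted in 2 rounds, 1000 cells to a library, at 6 Zeitgeber times (ZT, counted in hours from lights on): 0, 4, 8, 12, 16 and 20. The 12 combinations of tissue and time had 3 libraries apiece, except VAT at ZT20 with 2, for 17 VAT and 18 spleen libraries. No group received a drug or stimulus according to the labels, and all animals shared genotype, strain and sex. The sort used CD25 rather than a Foxp3 reporter, so activated conventional T cells with CD25 could be among the cells. Whether replicate libraries stem from different animals is not in the labels; p-values therefore refer to the spread among these libraries, part or all of which may be technical.

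Early response genes are transcribed within minutes of a signal, from transcription factors already present in the cell, and their mRNAs are short-lived. NR4A proteins are orphan nuclear receptors, and NR4A and EGR factors are induced in T cells by antigen receptor signals through calcineurin and the ERK kinases; in Tregs the NR4A factors help maintain Foxp3. EGR1, EGR2 and EGR3 are zinc finger factors held in check by the NAB corepressors, while EGR2 and EGR3 drive genes that restrain T cell responses. IER2 and IER5 are related nuclear proteins, and IER3 is an unrelated small protein tied to cell survival.

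The bases before the start sites are shown because NR4A genes are classical targets of CREB, which binds the cyclic AMP response element (CRE), and EGR genes of SRF, which binds the CArG box. RefSeq windows of 250 bases before a start (GRCm38.p6) were found for 6 of the 9 genes: Nr4a1, Nr4a2, Nr4a3, Egr2, Ier3 and Ier5. Sequences run 5′ to 3′ on the gene's strand. Capitals mark the short CRE site TGACG or its reverse complement and, in Egr2, also the CArG box. The regions are chr15:101266596-101266845 on the plus strand for Nr4a1, inside a GENCODE intron of that gene, and chr2:57124004-57124253 on the minus strand for Nr4a2, upstream of the gene. For Nr4a3 it is chr4:48045055-48045152 on the plus strand, ending where an annotated exon begins. The Egr2 region is chr10:67537619-67537868 on the plus strand, within an intron of the longer transcript models.
Nr4a1: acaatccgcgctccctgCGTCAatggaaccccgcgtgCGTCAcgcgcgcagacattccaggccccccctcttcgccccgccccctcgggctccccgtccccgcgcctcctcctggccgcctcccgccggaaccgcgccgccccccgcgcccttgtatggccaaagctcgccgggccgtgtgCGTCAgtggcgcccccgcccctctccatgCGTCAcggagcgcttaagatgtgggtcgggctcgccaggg
Nr4a2: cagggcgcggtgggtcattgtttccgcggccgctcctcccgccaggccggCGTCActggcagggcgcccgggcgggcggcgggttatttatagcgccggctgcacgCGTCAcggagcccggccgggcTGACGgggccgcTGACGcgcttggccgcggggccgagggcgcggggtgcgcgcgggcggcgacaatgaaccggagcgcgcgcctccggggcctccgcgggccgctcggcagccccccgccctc
Nr4a3: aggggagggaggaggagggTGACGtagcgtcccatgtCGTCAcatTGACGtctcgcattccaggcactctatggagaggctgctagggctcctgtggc
Egr2: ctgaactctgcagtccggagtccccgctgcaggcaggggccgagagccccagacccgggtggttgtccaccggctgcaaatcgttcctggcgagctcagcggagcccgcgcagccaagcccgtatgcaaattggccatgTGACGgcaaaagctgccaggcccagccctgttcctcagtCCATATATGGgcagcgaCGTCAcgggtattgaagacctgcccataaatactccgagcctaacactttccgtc

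Each of the 3 NR4A windows of 250 bases held 4 short CRE sites; the stretch of 98 bases printed for Nr4a3 shows 3 of its 4. At least 1 short site on either strand was present in 17.8% of the 32851 mouse windows of this length, and 4 or more in 45 windows (0.137%). The cut at 4 was chosen after the NR4A windows had been read. A full CRE, TGACGTCA, was in none of the 6 genes' windows and in 1.55% of all windows. The Egr2 window held 1 CArG box, found in 1.47% of all windows, and 2 short CRE sites. A second Egr2 window, chr10:67537316-67537565, held another CArG box and 3 matches to the ETS core CCGGAA, 2 of them overlapping on opposite strands; 12% of all windows held an ETS core. The Egr2 window farthest upstream, chr10:67535249-67535498, held none of the motifs searched. Egr2 windows that begin at 67537620 and 67537680 overlapped the printed one and held the same matches. Egr2 thus had several windows in which to match, whereas the shares are per window. Nr4a1 also held 1 ETS core and 1 EGR site, GCGGGGGCG, which 2.57% of windows held. The windows of Ier3 and Ier5 held none of the motifs searched, which included the EGR site GCGTGGGCG (0.536% of windows), the NR4A site AAAGGTCA (1.34%) and the AP-1 site TGANTCA (6.75%). Both strands were searched, and a match describes letters only.

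Between 2069319 and 6260185 counts were assigned to genes per library, and the 9 genes took 0.499% to 0.740% of them in VAT but 0.0214% to 0.0416% in spleen. Within groups the 34 pairs of replicates differed beyond sampling noise, with a chi-square statistic per gene of 4.30 to 22.7. Treg and T cell markers matched the labels: all 8 were detected in every library, with summed levels of 5949 to 7896 CPM (counts scaled to a common library total) in VAT and 3103 to 4193 CPM in spleen.

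Of the 9 genes, 8 were higher in VAT Tregs than in splenic Tregs and 1, Egr2, was lower (edgeR quasi-likelihood test, Benjamini-Hochberg adjustment over all 15910 genes, threshold 0.05). Among all genes tested, 62.1% were called between the tissues, 28.6% higher in VAT and 33.5% lower, so a call alone is common. The sizes were less so: Nr4a1, Nr4a2, Nr4a3, Egr1 and Ier3 rose by a log2 fold change of 4 or more, as did 2.18% of all genes. With Ier2, 6 of the 9 rose by 2 or more, as did 6.68% of all genes. For 7 of the 9 genes every VAT library lay above every spleen library, a pattern seen in 6.48% of genes; the reverse, seen in 3.97% of genes, held for 0 of the 9. The median log2 fold change of the 9 was 4.11 beside -0.10 for all genes. In the paragraphs that follow a level is in CPM scaled by TMM factors (trimmed mean of M values), given as mean ± SD over libraries, and a log2 fold change is VAT minus spleen, averaged over the 6 times, ± SE. How cells were freed from each tissue is not in the labels, so tissue and handling before the sort cannot be told apart; nor can fewer cells with a transcript be told from less transcript per cell.

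**Figure D1:**
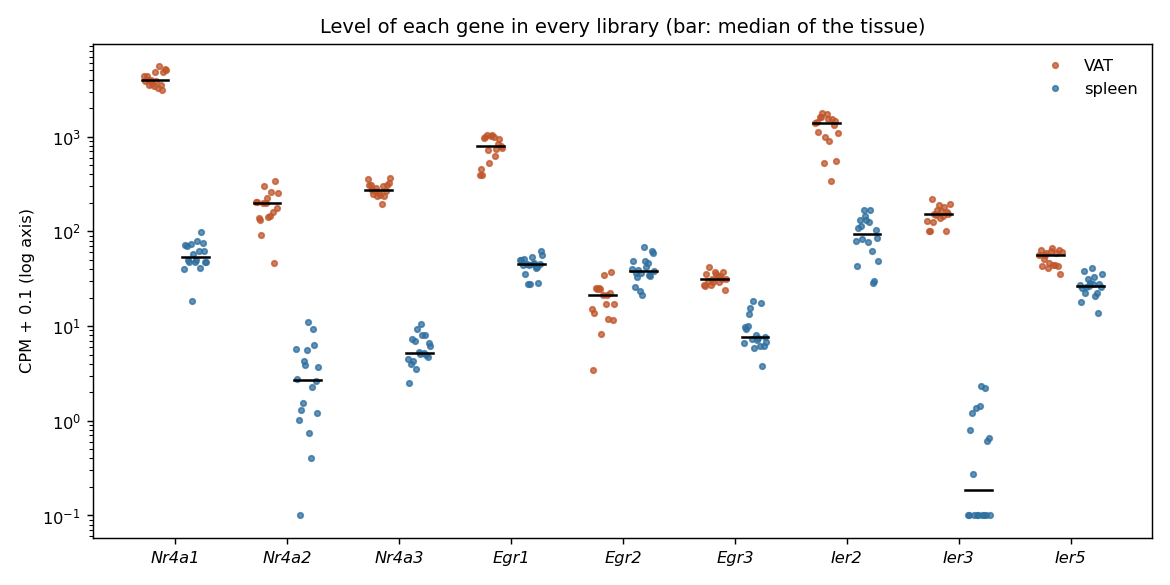
Level of each of the 9 genes in all 35 libraries, as CPM plus 0.1 on a log axis, with VAT in orange, spleen in blue and bars at the tissue medians. The tissues are apart for all genes except Egr2 and Ier5, and Egr2 alone sits higher in spleen; the row of points at 0.1 for Ier3 is the 9 spleen libraries without a count.

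Nr4a1 (Nur77, the orphan receptor used as a reporter of antigen receptor signalling; chromosome 15, 101254269 to 101274795, GRCm38) was the most abundant of the 9 in VAT, and second to Ier2 in spleen. In VAT its lowest, median and highest libraries were at 3079, 3944 and 5519 CPM, and in spleen at 18.2, 54.2 and 99.5 CPM. The lowest VAT library was thus far above the highest spleen library. Means were 4143 ± 731 CPM (n = 17) and 57.8 ± 18.5 CPM (n = 18), a log2 fold change of 6.19 ± 0.15 with an adjusted p of 6.40e-22 (edgeR). Per kb of exon, Nr4a1 ranked 24 of 15597 genes in VAT and 2959 in spleen.

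Nr4a2 (Nurr1; chromosome 2, 57106830 to 57124003) ran from 46.8 through a median of 200 to 339 CPM in VAT, and from 0 through 2.61 to 11.0 CPM in spleen. The single spleen library without a count was ZT4 B. Its log2 fold change was 6.01 ± 0.32 (190 ± 74.1 against 3.45 ± 3.07 CPM, adjusted p = 1.73e-14, edgeR). Both extremes of VAT fell at ZT16, in replicate B (46.8 CPM) and replicate C (339 CPM), so replicates of 1 time spanned the whole tissue range.

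Nr4a3 (NOR1; chromosome 4, 48045153 to 48086447) was the steadiest NR4A gene in VAT, with a lowest, median and highest value of 197, 273 and 362 CPM. Spleen libraries had 2.43, 5.12 and 10.5 CPM in the same order. The groups were far apart, with 282 ± 44.6 against 5.83 ± 2.11 CPM and a log2 fold change of 5.62 ± 0.10 (adjusted p = 1.66e-33, edgeR). All 3 genes were higher in VAT, and for each the VAT range of its share of the family lay within the spleen range. A difference in these shares between tissues was not tested. Nr4a1 made up 92.6% ± 1.27 of the family's CPM per kb in VAT (SD, n = 17) and 89.3% ± 5.10 in spleen (n = 18). Nr4a3 made up 3.74% ± 0.489 and 5.59% ± 1.86, and Nr4a2 3.62% ± 1.25 and 5.08% ± 4.70.

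Of the partners of this family, Rxra, the retinoid receptor that dimerises with NR4A1 and NR4A2, had a log2 fold change of 0.64 ± 0.18 (adjusted p = 0.00205) and Rxrb one of -0.37 ± 0.13 (adjusted p = 0.0105, edgeR). With library totals as the scale Rxra was no longer called (0.29, adjusted p = 0.143).

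The EGR family did not move as 1 block. Egr1 (chromosome 18, 34859823 to 34864984), the founding family member and a direct SRF target, stood at a lowest, median and highest level of 389, 789 and 1040 CPM in VAT and of 27.5, 44.8 and 61.3 CPM in spleen. There was no overlap. The log2 fold change was 4.11 ± 0.09 (778 ± 231 against 44.0 ± 9.42 CPM, adjusted p = 1.81e-28, edgeR).

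Egr3 (chromosome 14, 70077203 to 70082614), which acts with Egr2 in T cell tolerance, lay at 23.8, 31.1 and 41.5 CPM in VAT and at 3.70, 7.52 and 18.2 CPM in spleen, again lowest, median and highest. The tissues did not overlap, but the difference was modest at a log2 fold change of 1.79 ± 0.15 (31.7 ± 4.59 against 9.17 ± 4.15 CPM, adjusted p = 3.54e-13, edgeR).

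Egr2 (Krox20; chromosome 10, 67535475 to 67542188) went the other way. Its VAT libraries ran from 3.35 through a median of 21.2 to 36.9 CPM and its spleen libraries from 21.1 through 38.4 to 68.5 CPM, so the ranges overlapped. The log2 fold change was -1.11 ± 0.16 (19.6 ± 8.78 against 40.8 ± 12.9 CPM, adjusted p = 5.09e-07, edgeR). Within libraries the family's make-up differed between the tissues. Egr1 held 92.7% ± 1.91 of the family's CPM per kb in VAT and 41.4% ± 4.60 in spleen, while Egr2 held 3.08% ± 1.09 and 49.6% ± 6.45. No VAT library had an Egr2 share above 4.69%, and no spleen library one below 38.8%. These shares follow from the same counts as the fold changes and carry no test of their own.

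The EGR corepressor genes moved little: Nab1 had a log2 fold change of -0.31 ± 0.12 (adjusted p = 0.0222) and Nab2 of -0.03 ± 0.15 (adjusted p = 0.873, edgeR). Nab2 was called lower with library totals as the scale (-0.38, adjusted p = 0.0206). The relative Egr4 had too few counts to be tested.

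Ier3 (IEX-1; chromosome 17, 35821684 to 35822923) showed the largest difference of the 9. VAT libraries held 101, 154 and 219 CPM at the lowest, median and highest, and spleen libraries 0, 0.086 and 2.23 CPM. In spleen 9 of 18 libraries had no count, and all 18 together had 37 counts against 9304 in VAT. The mean was 151 ± 33.3 CPM in VAT and 0.554 ± 0.749 CPM in spleen, a log2 fold change of 8.18 ± 0.24 (adjusted p = 2.92e-22, edgeR) whose size rests on those few spleen counts. Only 18 of the 15910 genes had a larger increase, since Ier3 ranked 19.

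Ier2 (chromosome 8, 84661331 to 84662852), a gene of 1 exon, had a lowest, median and highest level of 343, 1399 and 1780 CPM in VAT and of 28.5, 94.2 and 170 CPM in spleen. Every VAT library was above every spleen library. The log2 fold change was 3.72 ± 0.21 (1233 ± 443 against 96.4 ± 44.2 CPM, adjusted p = 3.66e-14, edgeR). Spread within a tissue was wide, with VAT ZT12 D (343 CPM), ZT8 B (525 CPM) and ZT20 A (553 CPM) well under the others.

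Ier5 (chromosome 1, 155096361 to 155099636), also of 1 exon, ran from 35.1 through 55.8 to 66.8 CPM in VAT and from 13.7 through 26.6 to 41.3 CPM in spleen, with an overlap. Its log2 fold change of 0.97 ± 0.10 was the smallest increase of the 9 (52.4 ± 9.63 against 27.2 ± 6.92 CPM, adjusted p = 2.23e-10, edgeR). The relative Ier5l was close to 0 in both tissues (2.55 ± 1.08 CPM in VAT and 0.150 ± 0.264 CPM in spleen) and was called higher in VAT, with a log2 fold change of 4.29 ± 0.53 (adjusted p = 1.38e-08, edgeR). In VAT Ier3 formed 15.8% ± 7.51 of the IER family's CPM per kb, against 0.830% ± 1.62 in spleen.

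Levels of different genes were compared per kb of exon. In VAT the order was Nr4a1 (1181 CPM per kb), Ier2 (810), Egr1 (174), Ier3 (134), Nr4a3 (47.1), Nr4a2 (46.7), Ier5 (16), Egr3 (7.21) and Egr2 (5.77). Neighbours whose means lay within the sum of their SDs were Nr4a1 with Ier2, Egr1 with Ier3, Nr4a3 with Nr4a2 and Egr3 with Egr2. In spleen the order became Ier2 (63.4 CPM per kb), Nr4a1 (16.5), Egr2 (12.0), Egr1 (9.81), Ier5 (8.29), Egr3 (2.08), Nr4a3 (0.973), Nr4a2 (0.849) and Ier3 (0.490). Only Ier2 over Nr4a1 and Ier5 over Egr3 were apart by more than both SDs there. Egr2 thus stood last of the 9 in VAT and the third in spleen, and Ier3 after Egr1 in VAT and last in spleen. Spread between libraries was smallest for Egr3 in VAT, with a coefficient of variation of 14.5%, and largest for Egr2 (44.8%); in spleen it ran from 21.4% for Egr1 to 135% for Ier3.

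Tested at each time alone, 49 of the 54 combinations of gene and time were called. Nr4a1, Nr4a2, Nr4a3, Egr1, Egr3, Ier2 and Ier3 were higher in VAT at all 6 times, as were 8.31% of all genes, and 0 of the 9 were lower at all 6, as were 5.03%. The share of all genes called at a single time ran from 24% at ZT20 through 28% at ZT12, 28.4% at ZT4 and ZT8 and 30.3% at ZT0 to 30.7% at ZT16. Egr2 was called lower at ZT0 (-1.81 ± 0.41), ZT12 (-1.12 ± 0.38) and ZT20 (-1.89 ± 0.46), with adjusted p of 7.27e-04, 0.0253 and 0.00218 (edgeR). At ZT4, ZT8 and ZT16 its log2 fold changes were -0.53 ± 0.39, -0.59 ± 0.40 and -0.69 ± 0.38, with adjusted p of 0.332, 0.287 and 0.174.

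Single libraries decided some of the Egr2 calls. The ZT12 call was lost without VAT ZT12 B (adjusted p = 0.109), VAT ZT12 D (0.0824) or spleen ZT12 A (0.103). The ZT20 call was lost without VAT ZT20 A (0.0671), which leaves 1 VAT library at that time, and a ZT16 call appeared without VAT ZT16 C (0.0350).

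Ier5 was called at ZT0, ZT4, ZT8 and ZT16, with log2 fold changes of 1.22 ± 0.25, 0.95 ± 0.25, 0.81 ± 0.25 and 1.55 ± 0.26. It was not called at ZT12 (0.60 ± 0.25, adjusted p = 0.0644) or ZT20 (0.69 ± 0.27, adjusted p = 0.0612, edgeR). The ZT8 call was lost without VAT ZT8 D (adjusted p = 0.0975) or spleen ZT8 C (0.0608), and ZT20 was called without VAT ZT20 A (0.0235) or spleen ZT20 C (0.0469).

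**Figure D2:**
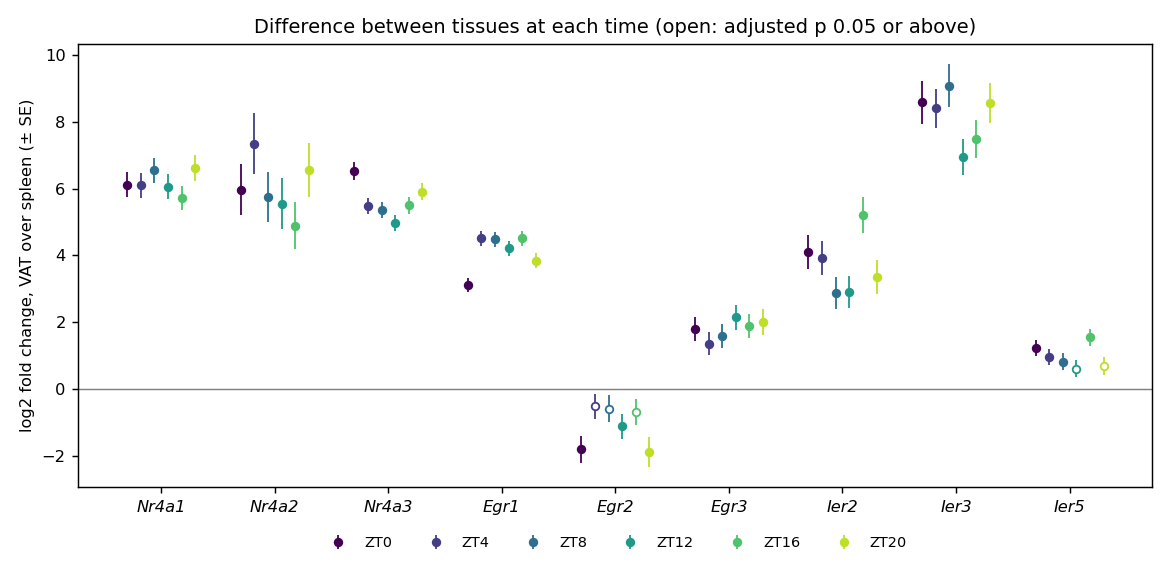
Log2 fold change of VAT over spleen at each of the 6 times, with SE bars; filled points passed the adjusted threshold of 0.05 and open points did not. The 5 open points are Egr2 at ZT4, ZT8 and ZT16 and Ier5 at ZT12 and ZT20, and Egr1 has its smallest difference at ZT0 (3.12).

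Over the day, none of the 9 genes fitted a 24 h rhythm past the threshold in either tissue. Of all genes, 1.84% were called rhythmic in VAT and 1.99% in spleen. At an unadjusted p under 0.05 the rhythm test picked 1 of the 9 in VAT (Nr4a3) and 2 in spleen (Nr4a3 and Ier2). Over all 15910 genes it picked 2771 in VAT and 2495 in spleen. DESeq2 also called 0 of the 9 in each tissue. When any difference among the 6 times was tested, 1 gene was called in VAT, Egr1 (adjusted p = 0.00314, edgeR), where 5.15% of all genes were called, and 0 in spleen, where 2.05% were. In spleen 4 of the 9 (Nr4a3, Egr1, Ier2 and Ier5) had an unadjusted p under 0.05, as did 2640 of all 15910 genes. DESeq2 called Ier2 alone of the 9 there (adjusted p = 0.0136).

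Egr1 in VAT was low at lights on. The 3 libraries of ZT0 held 391, 457 and 389 CPM and were the 3 lowest of the 17. Those of ZT4 held 973, 988 and 1033 CPM, those of ZT8 717, 522 and 1020 CPM, those of ZT12 1040, 996 and 625 CPM, those of ZT16 735, 842 and 951 CPM, and the pair of ZT20 789 and 757 CPM. ZT0 averaged 412 ± 38.4 CPM and the other 14 VAT libraries 856 ± 168 CPM, a ratio of 2.08 that was computed after the values had been seen and has no test beyond that over the 6 times. The call of Egr1 over VAT times held in every alternative run, with adjusted p between 1.70e-13 and 0.0263.

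In spleen Egr1 showed no low point at ZT0. Its libraries there held 49.8, 49.3 and 43.7 CPM, beside 43.3 ± 10.1 CPM over the other 15. Whether the difference between tissues varied over the day was tested as an interaction. Egr1 had an unadjusted p of 8.72e-05 and an adjusted p of 0.154 (edgeR), in a test that called 0.00629% of genes, so the difference between the courses was not established. Of the 9, 3 had an unadjusted p under 0.05 in that test (Nr4a3, Egr1 and Ier2), as did 1469 of all 15910 genes. DESeq2 called 2 of the 3, Egr1 (adjusted p = 0.00214) and Nr4a3 (0.0490). With edgeR Egr1 was also called without VAT ZT8 D (0.0378), VAT ZT12 A (0.0481) or VAT ZT12 D (0.0486).

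The same ZT0 libraries of VAT were low for some of the other genes and not for others. Ier3 averaged 111 ± 15.6 CPM at ZT0 and 160 ± 29.7 CPM over the other 14, and Egr2 10.7 ± 6.39 and 21.5 ± 8.14 CPM. Nr4a3 leaned the other way, with 328 ± 28.5 CPM at ZT0 and 273 ± 41.8 CPM elsewhere. Nr4a1, at 4226 ± 296 and 4125 ± 801 CPM, and Ier2, at 1319 ± 181 and 1215 ± 484 CPM, differed by less than their SDs. None of these but Egr1 passed the test over times in VAT (adjusted p 0.224 for Egr2, 0.370 for Nr4a3, 0.719 for Ier3, edgeR).

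Nr4a3 had the closest approach to a VAT rhythm, with a peak-to-trough amplitude of 0.44 ± 0.16 on the log2 scale near ZT21.8 (adjusted p = 0.250). In spleen its fitted peak was at ZT11.7, with an amplitude of 0.77 ± 0.25 (adjusted p = 0.163). The test of a rhythm difference between the tissues gave an adjusted p of 0.238 and an unadjusted p of 0.00106 (edgeR), in a test that called 0.00629% of genes. That test called 0 of the 9 genes, and DESeq2 also called 0. An unadjusted p under 0.05 was found for 2 of the 9 (Nr4a3 and Egr1) and for 1457 of all 15910 genes.

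Ier2 in spleen had the second lowest rhythm p of the 9 there, after Nr4a3. Its 3 libraries held 79.0, 42.7 and 108 CPM at ZT0, 132, 115 and 83.8 CPM at ZT4, 170, 145 and 133 CPM at ZT8, and 77.5, 125 and 168 CPM at ZT12. They held 61.9, 28.5 and 29.6 CPM at ZT16 and 103, 85.4 and 48.8 CPM at ZT20. The ZT8 libraries were all above those of ZT16. A fitted amplitude of 1.28 ± 0.42 on the log2 scale with a peak at ZT6.99 did not pass (adjusted p = 0.192, unadjusted 0.0167, edgeR), and in VAT it was 0.39 ± 0.39 (adjusted p = 0.836).

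**Figure D3:**
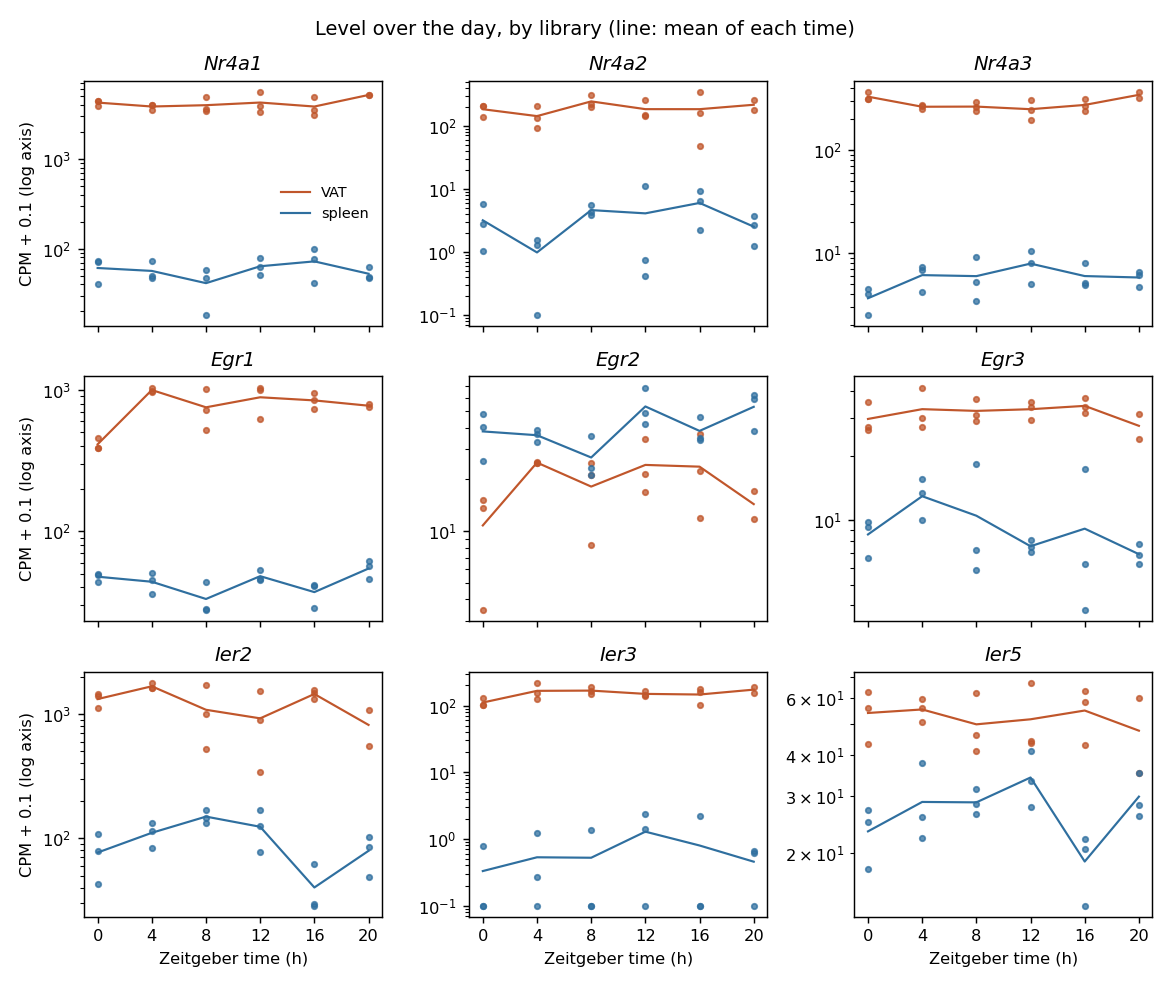
Level of each gene by Zeitgeber time, as CPM plus 0.1 on log axes that differ between panels; points are libraries and lines join the means of each time, VAT in orange and spleen in blue. Egr1 in VAT is lowest at ZT0 (412 CPM on average) and highest at ZT4 (998 CPM), while for most genes the spread between replicates is as wide as the course over the day.

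Between libraries of 1 tissue the 9 genes were mostly not tied to one another. Among 36 pairs in VAT and 36 in spleen, tested together by permutation of log2 CPM, 1 pair in each tissue passed adjustment over the 72. In VAT Ier2 and Ier5 correlated with Pearson's r = 0.734 (permutation p = 6.40e-04, adjusted 0.0407, n = 17) and Spearman's rho = 0.640 (permutation p = 0.00711, adjusted 0.137), and r was 0.786 without the 2 libraries farthest from the Ier2 median. In spleen that pair had r = 0.581 (adjusted permutation p = 0.135, n = 18). In spleen Egr1 and Egr2 correlated with r = 0.708 (permutation p = 0.00113, adjusted 0.0407, n = 18) and rho = 0.711 (permutation p = 0.00130, adjusted 0.0612), but r fell to 0.481 without the 2 libraries farthest from the Egr1 median. Against the means of each time the call was lost (r = 0.512, adjusted permutation p = 0.205). Ier2 and Ier5 in VAT there had r = 0.758 (adjusted permutation p = 0.0115). The 6 means removed make such p-values too small, so the value for Ier2 and Ier5 makes no call.

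In VAT Egr1 and Egr2 had r = 0.656 (adjusted permutation p = 0.0643, n = 17), although Egr1 was higher and Egr2 lower there than in spleen. When each library was set against its own group of tissue and time, the value was 0.313. Nr4a1 and Nr4a3 had r = 0.680 in VAT (adjusted permutation p = 0.0607, rho = 0.713), and 0.712 against group means (adjusted permutation p = 0.0324). Against group means Nr4a2 and Ier2 in spleen had r = -0.695 (adjusted permutation p = 0.0324, n = 18). The 6 means removed make these p-values against group means too small as well, and they make no call.

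The genes most like each member over the libraries of a tissue were found among all tested genes with a mean of at least 10 CPM, and are given as a description with no test. Nr4a1 in VAT was followed most closely by Areg, the growth factor amphiregulin (r = 0.876, n = 17), Nr4a2 by Prdm16 (0.833) and Nr4a3 by Tmed5 (0.890). The closest to Egr1 was Coq10a (0.841), to Egr2 Acpp (0.814) and to Egr3 Snx29 (0.761). For Ier2 it was Rnf187 (0.971), for Ier3 Trim30d (0.802) and for Ier5 Kdm6b, a histone demethylase gene (0.848). In spleen (n = 18) the closest to Nr4a1 was Acp6 (0.818), to Nr4a2 Commd6 (0.732), to Nr4a3 Tmem134 (0.775), to Egr1 Pias4 (0.747) and to Egr2 Neb (0.753). Egr3 was closest to Atg2a (0.736), Ier2 to Psmd3, a proteasome subunit gene (0.974), Ier3 to Slc25a20 (0.783) and Ier5 to Mcrip1 (0.799). No gene was the closest to a given member in both tissues.

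Ier2 stood out among the 9 by having genes at r of 0.9 or more: 35 of 8707 in VAT and 37 of 8683 in spleen, against 0 for each of the other 8 members in either tissue. Of these, 11 were in both lists, 31.4% of the VAT list and 29.7% of the spleen list. They were Atad3a, Bcl11b, Donson, Eif3f, Hgsnat, Itgb7, Micu2, Nop9, Nubp1, Psmd3 and Rps2. None of the other 8 members or of 25 further immediate early genes was among them. Such counts were not made for genes outside the 9. How common such lists, or an overlap of this size, are among all genes is therefore not known. Itgb7, the β7 integrin chain, had r = 0.947 in VAT and 0.953 in spleen. It was picked because the lower of its 2 values was the highest of the 11. Over the VAT libraries Ier2 spanned 343 to 1780 CPM and Itgb7 882 to 5190 CPM, and over the spleen libraries 28.5 to 170 CPM and 339 to 1889 CPM. The ribosomal protein gene Rps2, which has near-identical copies that the counting may split, spanned 96.4 to 485 CPM and 97.4 to 602 CPM. Ier2 was 13.2 times higher in VAT by the fitted fold change, whereas Rps2 had a log2 fold change of 0.14 ± 0.22 between tissues (adjusted p = 0.591, edgeR). Ier2 was not called against the library's slope of counts on transcript length, a measure of amplification bias, with r = -0.197 in VAT (adjusted permutation p = 0.629, n = 17) and 0.357 in spleen (0.442, n = 18). The 2 VAT libraries farthest from the median slope were ZT20 A (-0.226) and ZT20 C (-0.200), all of VAT at that time. Without them r in VAT was -0.675 for Ier2 and -0.815 for Ier5, in place of -0.197 and -0.278. Whether the slope enters the correlation of Ier2 with Ier5 over the other times was not tested. With all libraries, 18 tests against the slope were made over the 9 genes and 2 tissues. Of these, 0 were called by Pearson's r or by Spearman's rho. An unadjusted permutation p under 0.05 was found for 1, Nr4a3 in spleen by rho (0.0383). What the genes that vary with Ier2 share was not tested.

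**Figure D4:**
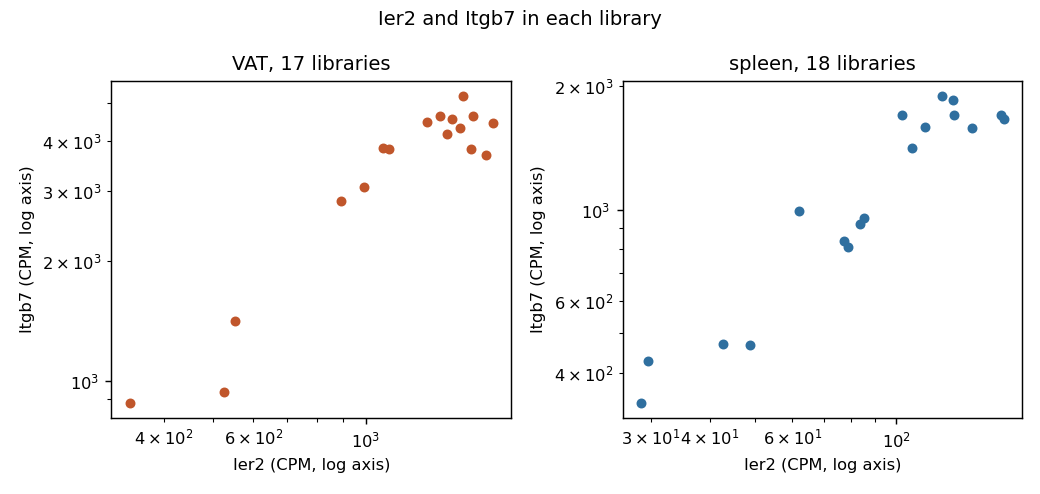
Ier2 against Itgb7 in each library, both in CPM on log axes, with VAT on the left and spleen on the right. Both genes span 5-fold or more in each tissue. Itgb7 was picked for its high r with Ier2 in both tissues, so the line of libraries (r = 0.947 and 0.953) follows from that choice.

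Other immediate early genes were also high in VAT. Of 25 on the list, 20 were higher in VAT, 1 was lower and 4 were not called, with a median log2 fold change of 4.08. The largest differences were those of Atf3 (10.90 ± 0.30), Fos (8.98 ± 0.25) and Fosb (8.90 ± 0.23), factors of the ATF and AP-1 families. Rgs1, a regulator of G protein signalling, was the one that was lower (-0.38 ± 0.06). Dusp2, Btg1, Klf2 and Myc had values of 0.51, 0.09, -0.09 and 0.04 and were not called. With library totals 20 were higher and 4 lower, as Btg1 (adjusted p = 2.68e-04, edgeR), Klf2 (0.00540) and Myc (9.88e-05) were then called lower. Counts with library totals, here and for the lists below, stand beside 2863 of all 15910 genes called higher and 8493 lower. In spleen 7 of the 25 were rhythmic, beside 1.99% of all genes, and in VAT 1, beside 1.84%. Of the 9 members 0 were rhythmic in either tissue, which is near those shares of all genes.

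The factors that act on early genes differed less in mRNA. Among 17 genes for SRF, its partners, CREB, MEF2 and NFAT factors, 4 were higher, 4 lower and 9 not called, and the median was 0.05. The exception in size was Crem, a CREB family gene with a cyclic AMP-inducible repressor form, which averaged 838 ± 123 CPM in VAT against 32.2 ± 7.38 CPM in spleen (4.71 ± 0.09, adjusted p = 1.98e-30, edgeR). Elk4 was lower (-0.83 ± 0.07) and Elk3 higher (0.74 ± 0.10), both ternary complex partners of SRF. Srf itself had a log2 fold change of -0.06 ± 0.15 (adjusted p = 0.740). This count depended on scaling, like that over all genes: with library totals 2 were higher and 12 lower, and Nfatc1 reversed (0.14 ± 0.06 to -0.21).

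For the ERK cascade and calcineurin the count was 9 higher, 2 lower and 4 not called of 15, with a median of 0.30, but with library totals only 1 stayed higher and 3 were lower. The largest value was that of Mapk3, which encodes ERK1 (0.84 ± 0.16), followed by Rasgrp1 (0.62 ± 0.18) and Hras (0.60 ± 0.18), the last 2 called only with TMM scaling. Among 6 tested feedback inhibitors of ERK, 4 were higher and 2 lower under either scaling, with a median of 1.85. Dusp5 (4.06 ± 0.09) and Dusp6 (2.24 ± 0.08), phosphatases of ERK, rose, and Spred1 (-2.32 ± 0.39), an inhibitor of RAS signalling, fell.

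Genes reported as T cell targets of EGR2 and EGR3 split. Of 11, 5 were higher and 6 lower, with a median of -0.73. Cdkn1a, which encodes the cell cycle inhibitor p21, had a log2 fold change of 8.18 ± 0.20, the ubiquitin ligase gene Rnf128 one of 4.23 ± 0.27 and Ndrg1 one of 2.79 ± 0.09. Fasl (-2.49 ± 0.32) was lower, like the inhibitory receptor gene Lag3 (-2.23 ± 0.26). Of 15 targets and companions of the NR4A factors, 13 were higher, 1 lower and 1 not called, with a median of 0.96. Tox2 (4.24 ± 0.16), Havcr2 (3.20 ± 0.32) and Pdcd1 (2.57 ± 0.12), a factor and a pair of receptors of chronically stimulated T cells, led, and Ikzf4 was lower (-1.32 ± 0.11). With library totals the counts were 3 higher and 7 lower for the first list, where Cdkn1b reversed, and 11 higher and 2 lower for the second, where Cd5 reversed.

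**Figure D5:**
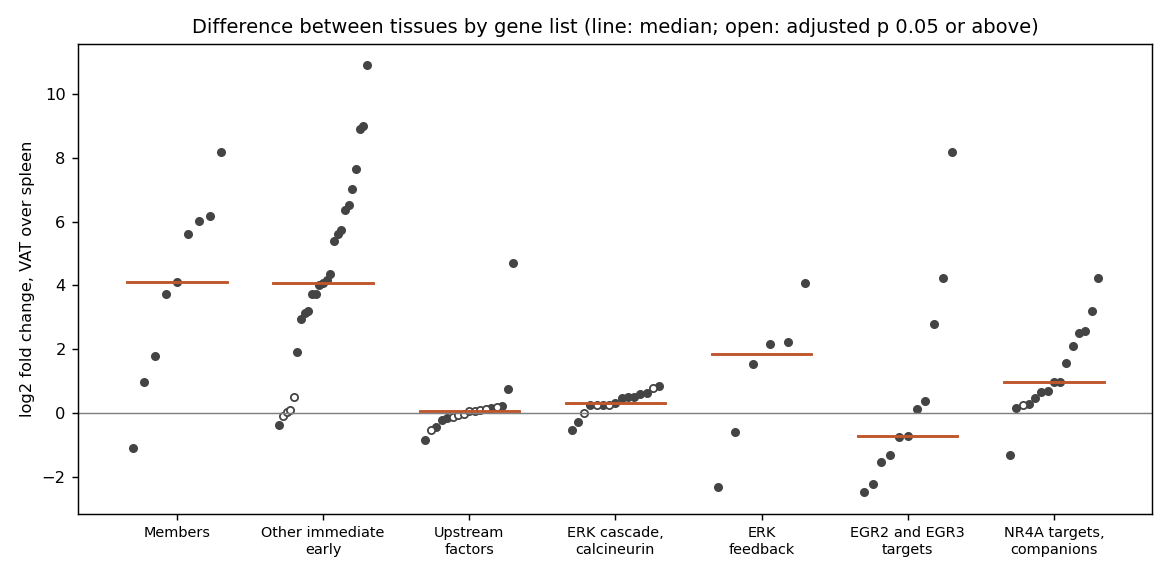
Log2 fold change of VAT over spleen for the 9 members and 6 lists of related genes; filled points passed the adjusted threshold and open points did not, and lines mark medians. The members (median 4.11) and the other immediate early genes (4.08) lie high, whereas the upstream factors (0.05) lie near 0 apart from Crem.

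Markers of other cells moved between the tissues as well. Of the B cell markers, Ighm ran from 88.4 to 271 CPM in VAT and from 1150 to 2999 CPM in spleen, while Cd79a reached at most 3.22 CPM in VAT and 5.44 CPM in spleen. The sum of 6 macrophage or monocyte markers was 6.63 to 18.9 CPM in VAT and 19.4 to 76.0 CPM in spleen, with Itgam at most 0.666 CPM. In spleen Csf1r reached 54.9 CPM, Lyz2 27.1 CPM and Adgre1 15.9 CPM. Cd68 alone of the list had the higher mean in VAT, at 7.47 against 5.58 CPM. Neutrophil, adipocyte and stromal or mesothelial sums stayed at or under 8.52 CPM in both tissues, with S100a8 at most 0.550 CPM and Adipoq at most 0.498 CPM in VAT. NK cell or ILC markers summed to 12.6 to 49.3 CPM in VAT and 1.44 to 4.63 CPM in spleen, of which Il5 made up most in VAT, with Ncr1 at most 0.965 CPM. Dendritic cell markers summed to 14.5 to 54 CPM in VAT, mostly Xcr1, and 11.5 to 34.2 CPM in spleen, mostly Zbtb46. CD8 T cell, endothelial and erythroid sums were at most 37.0, 53.1 and 8.03 CPM in VAT and 20.7, 341 and 99.4 CPM in spleen. The CD8 sum was mostly Cd8b1. The endothelial sum was mostly Pecam1, with Kdr at most 4.10 CPM and Cdh5 at most 1.48 CPM in any library. Of the erythroid markers, Hbb-bs reached 68.4 CPM in spleen, where its mean was 5.09 CPM. Beside these stand the members' VAT levels of 4143 CPM for Nr4a1 and 1233 CPM for Ier2; the part of such cells in the differences was not tested.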

How the data were processed

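The deposited table held raw read counts per gene symbol. The authors aligned with STAR 2.7.3a to mm10 and counted with featureCounts, per the submitters' processing notes; the annotation, strand setting and handling of multiply mapped reads were not given in the sources used here. Per the labels' protocols, oligo-dT primed cDNA was amplified by PCR, made into Nextera XT libraries and read as 2 reads of 25 nt, with no molecular identifiers named, so amplified copies are not independent molecules and oligo-dT priming with amplification can weigh transcripts by length. All 35 columns matched a sample. No other gene overlapped a member in GENCODE M21.

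The tests used edgeR 4.0.16 in R 4.3.3 and the 15910 genes that filterByExpr kept. They used TMM factors, 12 group means over all 35 libraries, and robust dispersions and quasi-likelihood fits. Rhythm was a cosine and sine of 24 h in each tissue, tested with 2 degrees of freedom, and any time difference and its interaction with tissue had 5. P-values were Benjamini-Hochberg adjusted over all genes of a test, and the code was tested on simulated data. Correlations used log2 CPM with a prior count of 2 and 100000 two-sided permutations. Alternatives were library totals, no filter, a replicate block, omission of ZT20 or of each library, a length slope covariate, tissues fitted apart and DESeq2 1.42.0. All members were named, with the 3 largest called differences of each list that had as many and the partners and relatives a sentence needs; of the 3 closest genes found per member and tissue, the first is shown. Single genes beyond that rule (Fasl, Lag3, Rgs1, Dusp2, Btg1, Klf2, Myc, Srf, Ikzf4, Nfatc1, Cdkn1b, Cd5, Rps2 and the 11 close to Ier2) were chosen after their values were seen. Members and lists were chosen with earlier results of these data known.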

Additional observations from a re-analysis of the deposited data

How the results depend on the processing

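All 9 calls between tissues were kept, in the same direction, in each of the 42 alternatives, 35 of which left out 1 library; log2 fold changes ranged from 5.84 to 6.24 for Nr4a1, from 7.84 to 8.95 for Ier3, from -1.46 to -0.95 for Egr2 and from 0.62 to 1.02 for Ier5. Library totals as the scale moved the median of all genes from -0.10 to -0.45 and the split of called genes from 4551 higher and 5337 lower to 2863 and 8493. With that scale Ier5 was not called at ZT4 (adjusted p = 0.0527) or ZT8 (0.140), and Egr2 was called at ZT16 (0.0337). Without the filter on low counts, 1 member was rhythmic in VAT and 3 in spleen, beside 1572 and 1446 of 47525 genes tested. In that run 4 members differed in rhythm, beside 1547 genes. Over VAT times 2 members varied, over spleen times 3 and in the interaction 3, beside 1493, 1083 and 373 genes. The cause was not tested. DESeq2 called 1 member over spleen times and 2 in the interaction, beside 1217 and 224 of 15910 genes. Leaving out single libraries gave 0 to 1 members in the interaction. What the replicate letters mark is not in the labels, and at each time the VAT letters recur among the spleen letters. Of 17 same-letter pairs of a time, 0 deviated together with a correlation over 0.1 (median -0.01). Pairs of different letters were not compared, so these correlations cannot show whether a pair shares an animal. A replicate block kept all 9 tissue calls and 49 single-time calls; blocked within time, 48 were kept and Egr2 at ZT12 was lost (adjusted p = 0.0853). Counts over all genes moved more. The genes tested were 47525 without the filter, 14585 without ZT20, 13379 with VAT fitted alone and 13120 with spleen alone. They were 15910 in the other runs, apart from those with a library left out. Any difference over VAT times took in 819 genes, 1493 without the filter, 433 with the replicate block, 17 without ZT20, 43 with the length slope, 1744 by DESeq2 and 296 with VAT fitted alone, and 65 to 1162 as single libraries were left out. Over spleen times 326 became 1083, 166, 68, 146, 1217 and 666, and 128 to 758. The 293 rhythmic genes in VAT became 1572, 110, 17, 28, 663 and 40, and 55 to 985. The 317 in spleen became 1446, 150 with the block, 126 with the slope, 853 by DESeq2 and 564 alone, and 98 to 569. The 1 gene in the interaction became 2 with library totals, 373 without the filter, 2 without ZT20, 5 with the slope and 224 by DESeq2, and 0 to 29; the 1 gene that differed in rhythm became 0, 1547, 24, 3 and 22, 0 with the block, and 0 to 11. Correlations called 2 member pairs with a prior count of 2 and 2 with 0.5. Against group means 3 pairs had an adjusted permutation p under 0.05, but the 6 means removed make those p-values too small. Egr1 with Egr2 in spleen was not among them (adjusted permutation p = 0.205). Depth limited Ier3 and Nr4a2 in spleen most, with 37 and 223 counts over 18 libraries.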
